A study of Rattus norvegicus with 2 samples.

Results

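The genes described here belong to 7 families of solute carriers, Slc1a, Slc3a, Slc6a, Slc7a, Slc36a, Slc38a and Slc43a, which hold most of the known amino acid transporters of the plasma membrane and lysosome. They were chosen by symbol, from array probes whose transcript accession belongs to a rat gene of one of these families. Of 69 such genes in the reference table, 60 had at least 1 probe, out of 15159 named genes on the array. The other 9 (Slc7a1, Slc38a10, Slc38a11, Slc6a16, Slc6a20b, Slc7a12l1 and the pseudogenes Slc3a2-ps1, Slc7a13-ps1 and Slc7a13-ps2) were not analysed here. The names also take in genes that carry no amino acid: Slc6a includes carriers of monoamines and creatine, and Slc7a6os is named only for lying opposite Slc7a6.

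The study used RMT-1 clone E4, a rat mammary tumour cell line, and measured total RNA on 2 one-colour (Cy3) Agilent expression arrays. One array came from cells transfected with a negative control siRNA and 1 from cells transfected transiently with an siRNA against Pla2g4c, a cytosolic phospholipase A2 that releases fatty acids from membrane lipids. They are called the control array and the treated array here. By its title the series is about cell death after loss of Pla2g4c. Both groups are 1 clone of 1 cell line with 1 array each, so no difference below has a replicate check or a p-value, and time after transfection and siRNA dose are not given in the sources used here.

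Cells take up amino acids through carriers with overlapping substrates. Some are single proteins, such as the sodium-coupled Slc1a and Slc38a carriers. Others are pairs in which a light chain of the Slc7a family does the transport and is brought to the membrane by a heavy chain, Slc3a2 (also called 4F2hc or CD98) or Slc3a1 (rBAT). The pair of Slc7a11 and Slc3a2, known as system xc-, exchanges glutamate for cystine, from which cells make glutathione. Amino acid shortage and other stresses raise several of these transporters through the transcription factor ATF4, and carriers on the lysosome report amino acid supply to the kinase complex mTORC1.

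Levels are given as the processed signal, the spot brightness after the scanner software's background subtraction. The signal at the 75th percentile of gene spots was 852 for control and 1105 for treated cells, a ratio of 1.30. Differences were therefore taken on the log2 scale after dividing each array by its own 75th percentile, as treated minus control. A difference of 0 thus corresponds to a 1.30-fold higher raw signal on the treated array. Each ± combines the errors that the scanner software gave the spots of both arrays. It is averaged over spots and probes and does not fall with their number, so it is near 0.20 for bright genes. It is technical in kind, and says nothing of how cultures vary. A gene counted as measured where a probe was well above background on both arrays. No probe matched Pla2g4c, so its level could not check the labels. Of the 10 epithelial markers 9 were measured, with Krt18 above background on neither array. Of the 9, 7 lay below 0, against 51% of all measured genes: Krt5 (-1.72), Krt17 (-1.63), Krt14 (-0.97), Cdh1 (-0.63), Krt7 (-0.31), Krt19 (-0.30) and Tp63 (-0.13). Krt8 (0.86) and Epcam (1.03) lay above 0. When the arrays were scaled to RNAs spiked in at labelling, 5 of the 9 lay above 0, against 88.7% of all measured genes. Of the leukocyte, fibroblast and endothelial markers, 5 of 17 were measured: Cd68 (-0.39), Csf1r (0.09), Col1a1 (0.13), Col1a2 (-0.26) and Cdh5 (-0.40). Pdgfra was above background on 1 array, and the rest, among them Ptprc, Cd3e, Pdgfrb and Pecam1, on neither. The part of these markers in the differences below was not tested. In RNA of whole cultures, fewer cells of a kind and less RNA per cell cannot be told apart.

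Of the 60 genes, 25 were measured on both arrays, 3 were well above background on the treated array only and 32 on neither. Of the 25, 0 were up by 2-fold or more, against 2.91% of all 9026 measured genes, and 0 were down by as much, against 3.05%. At least 1.5-fold higher were 3 of 25 (12.0%, against 8.69% of all genes), namely Slc7a11, Slc7a6 and Slc38a6. At least 1.5-fold lower were 4 of 25 (16.0%, against 10.3%), namely Slc6a8, Slc6a12, Slc6a2 and Slc7a3l1. With spike-in scaling these counts were 9 and 0, where 45.4% and 2.07% of all genes passed. The median difference was -0.09 over the members and -0.01 over all genes, and 10 of 25 members were above 0, against 49% of all genes. Other processing was tried beside this scaling: among others normexp, a model of the background under each spot, scaling to RNAs spiked in at labelling, and the normalized values deposited by the authors. Normexp here also added 50 to each signal, which draws the differences of members with signals near or below 50 together. They are drawn toward a value below 0 and not toward 0. With normexp Slc36a4 went from -0.09 to -0.23 and Slc6a12 from -0.74 to -0.50. The median of the members was 0.04 in those deposited values, with 15 of 25 above 0 (62.8% of all genes), and 0.46 with spike-in scaling, with 21 of 25 above 0 (88.7% of all genes). Those scalings moved the median of all genes to 0.12 and 0.54. Each of these 3 scalings multiplies an array by 1 factor. The members' median relative to all genes, -0.08, could therefore not differ between them. The difference was larger than its software error for 17 of 25 members, against 57.1% of all genes. These shares lay near those of all genes, and the sections that follow describe single members.

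**Figure D1:**
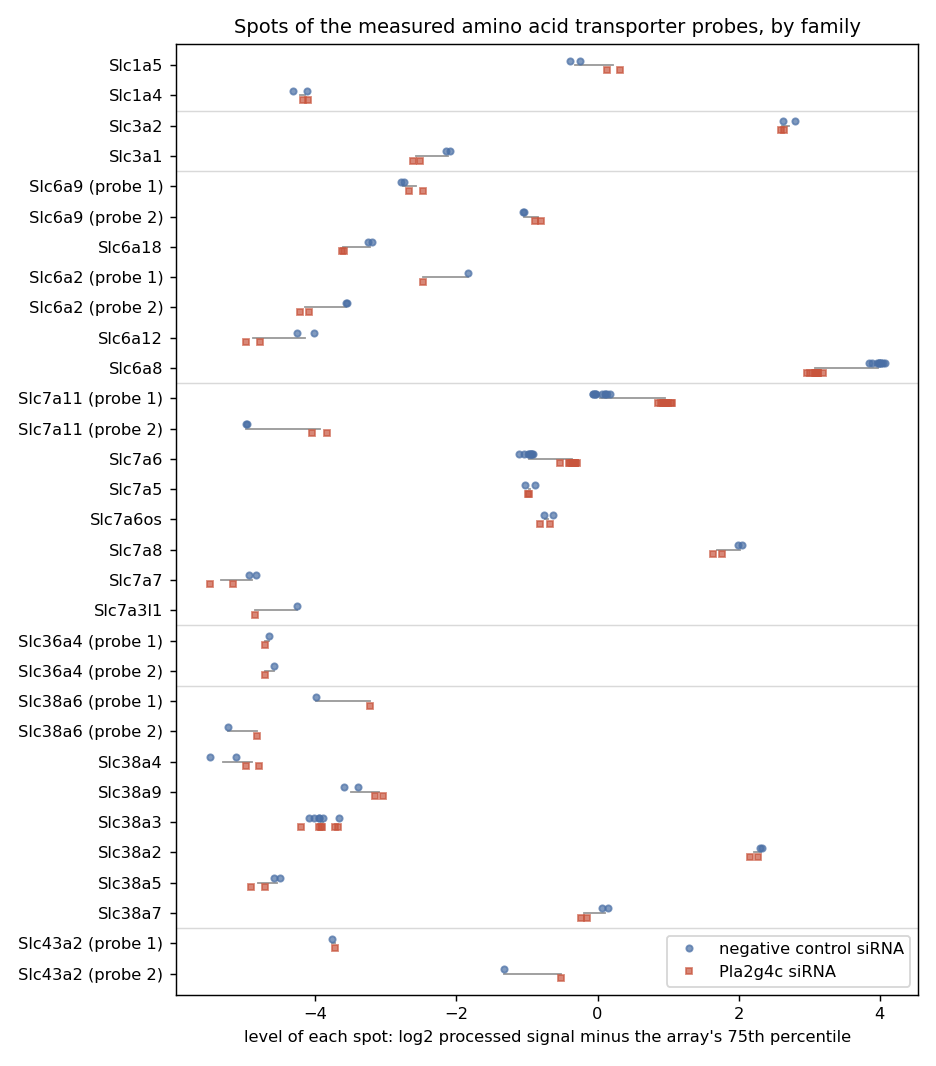
Level of every spot of the 31 measured probes, on the log2 scale relative to the array's 75th percentile (x axis), with circles for the negative control siRNA array, squares for the treated array and a grey line between the means of both. Horizontal lines part the 7 families, and the spots of Slc7a11 and Slc7a6 lie to the right on the treated array and those of Slc6a8 to the left.

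Slc7a11, the cystine and glutamate exchanger, had the highest difference of the 25. Its probe with 10 spots gave signals from 813 to 959 on the control array, with a geometric mean of 873, and from 2007 to 2288 on the treated array, with a mean of 2153. Its dimmer probe, with 2 spots, gave 26.9 and 27.2 on the control array and 67.2 and 77.5 on the treated array. On both probes every spot of the treated array was above every control spot after scaling. The differences were 0.93 ± 0.20 and 1.04 ± 0.25, and their mean of 0.98 ± 0.23 is 1.98-fold. Of all measured genes, 96.9% had a lower difference. The sign held under each of the 9 processing alternatives, while the size fell to 0.60 with normexp background correction, and it was 1.12 in the deposited values and 1.53 with spike-in scaling. The control signals of the dimmer probe lie below the 50 that normexp adds.

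Slc3a2, the heavy chain of this pair, was among the brighter members. Its 2 spots read 5273 and 5914 on the control array and 6687 and 6886 on the treated array, which overlap after scaling. The difference of -0.09 ± 0.20 was smaller than its error, and was 0.04 in the deposited values and 0.46 with spike-in scaling.

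The other light chains that pair with Slc3a2 differed among themselves. Slc7a6 (y+LAT2), which exchanges cationic for neutral amino acids, read 395 to 454 over 9 spots on the control array and 761 to 900 on the treated array. Every treated spot was above every control spot, and the difference was 0.61 ± 0.20 (1.53-fold) and between 0.56 and 1.16 under the alternatives. Slc7a6os, a gene of another function on the opposite strand beside it, read 524 and 660, with a difference of -0.04 ± 0.20, or 0.09 in the deposited values. Neither it nor the next gene had spots that separated. Slc7a5 (LAT1), the carrier of leucine and other large neutral amino acids, read 438 and 561, for a difference of -0.02 ± 0.20, or 0.11 in the deposited values. Slc7a8 (LAT2), with related substrates, read 3441 and 3587, which is -0.32 ± 0.20 after scaling and 0.23 with spike-in scaling. Slc7a7 (y+LAT1) was dim, at 28.7 and 27.4, and differed by -0.44 ± 0.30, or 0.11 with spike-in scaling.

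Slc3a1, the other heavy chain, carries cystine and cationic amino acids together with the light chain Slc7a9, best known from kidney and intestine. The 2 spots of Slc3a1 read 192 and 199.7 on the control array and 181 and 193 on the treated array, a difference of -0.44 ± 0.21 after scaling. With spike-in scaling it was 0.11. Slc7a9 was well above background on the treated array in all of 10 spots (30.5 to 42.8) and on the control array in 4 of 10 (7.19 to 17.9 over all spots). The spots did not overlap. The difference of Slc7a9, computed for the reported scaling only, was 1.07 ± 0.41 (2.10-fold higher). It uses the control array's own dim value, so it is not a lower limit.

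Of the CAT type, single proteins most of which carry arginine and lysine, Slc7a1 had no probe. Slc7a2, Slc7a3, Slc7a4 and Slc7a14 were above background on neither array. The Slc7a3-like gene Slc7a3l1 read 44.6 and 38.4 on the 1 spot that was kept, a difference of -0.59 ± 0.24. It was -0.43 with normexp background correction and -0.04 with spike-in scaling.

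The promoters of the genes with the highest and the lowest difference, Slc7a11 and Slc6a8, are shown with those of Slc3a2 and Slc1a4, which hold a match to a searched motif. Each run is the 250 bases before the annotated start, read 5′ to 3′ on the gene's strand, from RefSeq (build GRCr8), at chr2:136668265-136668514 on the minus strand, chrX:156535767-156536016 on the plus strand, chr1:215039671-215039920 on the minus strand and chr14:98761563-98761812 on the minus strand. Capitals mark a match.
Slc7a11: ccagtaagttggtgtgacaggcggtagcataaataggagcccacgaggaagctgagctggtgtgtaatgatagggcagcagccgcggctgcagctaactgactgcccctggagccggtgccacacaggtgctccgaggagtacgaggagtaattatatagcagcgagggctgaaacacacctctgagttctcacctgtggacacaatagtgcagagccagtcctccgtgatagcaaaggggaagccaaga
Slc6a8: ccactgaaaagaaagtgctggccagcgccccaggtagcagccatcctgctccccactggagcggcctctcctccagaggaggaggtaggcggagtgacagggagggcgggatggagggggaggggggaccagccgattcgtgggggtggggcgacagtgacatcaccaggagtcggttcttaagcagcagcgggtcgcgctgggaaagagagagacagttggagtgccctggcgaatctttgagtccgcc
Slc3a2: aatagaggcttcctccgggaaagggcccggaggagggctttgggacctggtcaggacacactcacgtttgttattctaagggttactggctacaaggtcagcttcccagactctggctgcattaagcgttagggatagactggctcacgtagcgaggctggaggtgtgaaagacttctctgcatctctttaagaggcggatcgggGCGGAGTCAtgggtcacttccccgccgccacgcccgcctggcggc
Slc1a4: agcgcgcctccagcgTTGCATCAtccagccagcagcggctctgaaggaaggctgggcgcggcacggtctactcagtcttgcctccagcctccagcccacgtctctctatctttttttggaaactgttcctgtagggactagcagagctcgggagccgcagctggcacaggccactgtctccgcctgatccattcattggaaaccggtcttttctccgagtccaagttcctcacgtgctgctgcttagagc
The motifs were the core of the amino acid response element bound by ATF4 with C/EBP factors, TGATGNAA, and the antioxidant response element bound by Nrf2, TGACNNNGC, each on both strands. TGATGNAA stood in 3.58% of the 27457 genes with a promoter and in 1 of the 21 measured members with one, Slc1a4. TGACNNNGC stood in 11.0% of genes and in 4 of the 21, Slc3a2, Slc3a1, Slc38a2 and Slc7a7. In Slc3a2 the match lies before 1 of 2 annotated starts, and no match to one motif overlapped a match to the other. Neither set of letters is in the Slc7a11 or Slc6a8 window. Only these 250 bases were searched, so sites elsewhere in or near a gene are not covered. The differences of the members with a match were 0.07 for Slc1a4, -0.09 for Slc3a2, -0.44 for Slc3a1, -0.10 for Slc38a2 and -0.44 for Slc7a7.

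In the Slc1a family, 2 of 7 genes on the array were measured. Slc1a5 (ASCT2) is a sodium-dependent exchanger that takes up glutamine. Its 2 spots read 651 and 714 on the control array and 1207 and 1373 on the treated array and did not overlap after scaling. The difference was 0.54 ± 0.20 (1.46-fold), with a range of 0.51 to 1.09 over the alternatives. Its relative Slc1a4 (ASCT1), a carrier of alanine, serine and cysteine, read 46.0 and 62.5, for 0.07 ± 0.23, and -0.22 with normexp background correction. The glutamate transporters of the same family, Slc1a1, Slc1a2, Slc1a6 and Slc1a7, were above background on neither array. Slc1a3, the glutamate transporter GLAST, was above background on the treated array only, at 25.5 and 32.9 against 11.9 and 12.5, on 1 of its 2 probes. Its difference on that probe was 0.87 ± 0.40 (1.83-fold higher), which uses the control array's own dim value and is not a lower limit.

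In the Slc38a family, 7 of 9 genes on the array were measured, and they went both ways. Slc38a6, a little studied member, had 2 probes of 1 kept spot each, at 53.4 and 22.5 on the control array and 117.7 and 38.9 on the treated array. Its mean difference of 0.59 ± 0.27 fell to 0.06 with normexp background correction. The 50 that normexp adds weighs heavily at such signals, so the normexp value is a weak check of Slc38a6. Slc38a9, a lysosomal carrier that senses arginine for mTORC1, read 70.6 and 81.3 on the control array and 124 and 135 on the treated array. Its spots did not overlap, and it differed by 0.39 ± 0.21, or 0.13 with normexp. Slc38a7, which exports glutamine from the lysosome, read 913 and 965, a difference of -0.30 ± 0.20 after scaling and 0.25 with spike-in scaling.

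Slc38a2 (SNAT2), the carrier of short neutral amino acids that is induced on amino acid shortage, was bright on both arrays, at 4242 and 5150, and its difference was -0.10 ± 0.20, or 0.04 in the deposited values. Slc38a4, of the same transport type, was near background at 21.5 and 37.3, and its difference of 0.42 ± 0.31 turned to -0.16 with normexp. Both signals lie below the 50 that normexp adds, so the normexp value is a weak check here. Slc38a5 and Slc38a3, carriers of glutamine and histidine, differed by -0.27 ± 0.25 and 0.03 ± 0.22. Slc38a5 was at 0.28 with spike-in scaling, and Slc38a3 at -0.17 with normexp. Slc38a1 and Slc38a8 were above background on neither array.

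In the smaller families, Slc43a2 (LAT4), which lets large neutral amino acids pass by facilitated diffusion, was measured by 2 probes of 1 spot each that disagreed. The brighter read 341 and 774 and differed by 0.81 ± 0.20, and the dimmer read 62.7 and 83.8 and differed by 0.04 ± 0.22. The mean of 0.43 ± 0.21 therefore describes neither. Slc36a4, a carrier of proline and tryptophan, read 34.6 and 42.1 as the mean of its 2 probes, with a difference of -0.09 ± 0.25, or 0.04 in the deposited values. Slc36a1, Slc36a2, Slc36a3, Slc43a1 and Slc43a3 were above background on neither array.

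In the Slc6a family, sodium- and chloride-coupled carriers of neurotransmitters, osmolytes and amino acids, 5 of 19 genes on the array were measured, and 4 of the 5 were below 0, against 51% of all genes. With spike-in scaling 3 of the 5 were below 0, against 11.3%. Slc6a8, the creatine transporter, was bright on both arrays and had the lowest difference of the 25. Its 10 spots read 12247 to 14286 on the control array, with a geometric mean of 13437, and 8601 to 10075 on the treated array, with a mean of 9392. Every treated spot was below every control spot. The difference was -0.89 ± 0.20 (1.86-fold lower), and 4.12% of all measured genes were lower. Under the alternatives it lay between -0.90 and -0.34, the latter with spike-in scaling.

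Slc6a12, which carries betaine and GABA and serves in osmotic balance, read 44.3 and 52.6 on the control array and 35.2 and 40.0 on the treated array. Its spots did not overlap, and it differed by -0.74 ± 0.25, with -0.50 under normexp and -0.19 with spike-in scaling. Slc6a2, the noradrenaline transporter, was measured by 2 probes, 1 with a single spot at 239.7 on the control and 199 on the treated array and 1 with 2 spots at 72.0 and 72.5 against 59.6 and 65.2. Both were lower after scaling, with differences of -0.64 ± 0.21 and -0.59 ± 0.22. With spike-in scaling Slc6a2 was at -0.07. Slc6a18, a kidney carrier of neutral amino acids, read 91.1 and 91.0 on 1 of its 2 probes, which is -0.38 ± 0.21 after scaling and 0.17 with spike-in scaling. Its other probe read 4.57 and 2.82, above background on neither array.

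Slc6a9 (GlyT1), the glycine transporter, was the member of the family above 0. Its dimmer probe read 125 on the control and 185 on the treated array, and its brighter probe 412 and 617. The differences were 0.19 ± 0.21 and 0.21 ± 0.20. Slc6a4, the serotonin transporter, was above background in both spots of the treated array and 1 of 2 on the control array, at nearly the same scaled level, so that its bound was 1.01-fold. The other 13, among them the taurine transporter Slc6a6 and the broad amino acid carrier Slc6a14, were above background on neither array. Over all 37 probes of the 32 genes above background on neither array, the mean signal ran from 2.32 to 22.0 on the control array and from 2.39 to 10.9 on the treated array.

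**Figure D2:**
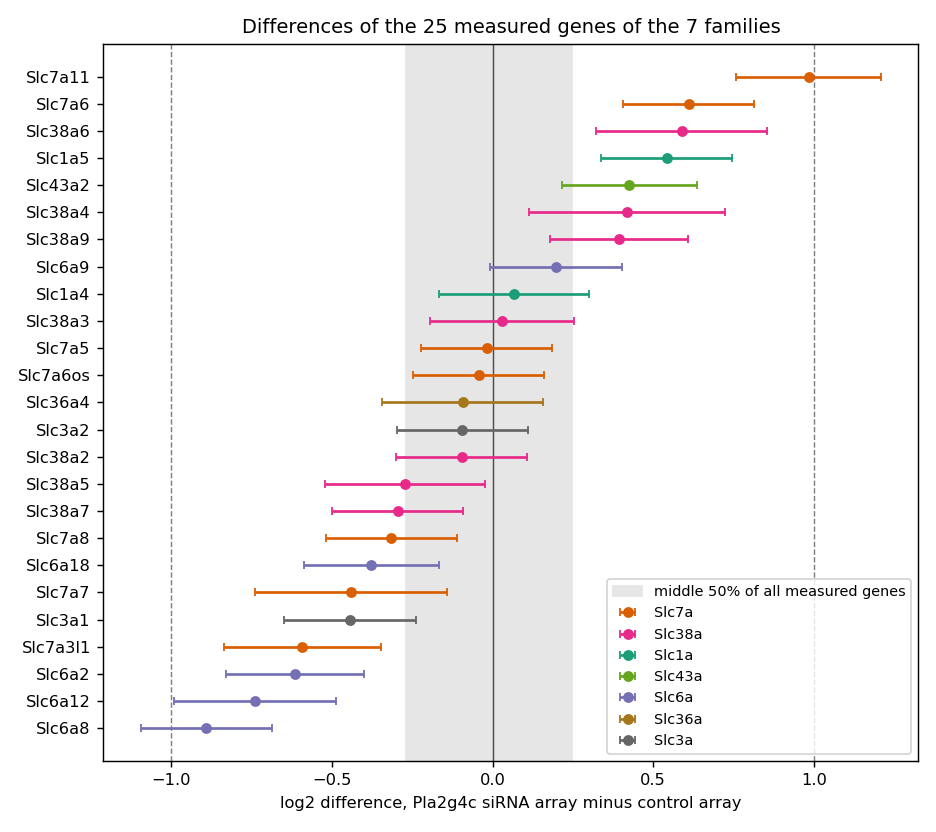
Log2 difference of each of the 25 measured genes (treated array minus control array, x axis), coloured by family, with bars of ± the software error; the grey band spans the quartiles of all 9026 measured genes and dashed lines mark 2-fold. Slc7a11 at 0.98 and Slc6a8 at -0.89 are the ends, and 0 genes lie beyond a dashed line in this scaling, whereas 1 did in the deposited values (4.09% of all genes were 2-fold higher there) and 4 did with spike-in scaling (13.2%).

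The spots of single probes were also compared between the arrays. Of the 31 measured probes, 23 had 2 or more kept spots. In 8 of them every treated spot was above every control spot, against 37.8% of all such probes on the array, and in 10 every one was below, against 39.7%. In the other 5 (Slc1a4, Slc3a2, Slc38a3, Slc7a5 and Slc7a6os) the spots overlapped. Over all such probes on the array 77.5% separated in either direction, so separated spots are the usual outcome. Spots of 1 array share their RNA and labelling, so separated spots tell apart the hybridised samples and not the treatments.

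Genes that use, make or sense amino acids were set beside the transporters as 5 lists, each described by its counts and median. The list of glutamine, glutamate and glutathione metabolism had the highest median, 0.32 over 18 measured genes, with 13 above 0, 6 up and 0 down by 1.5-fold or more, where the shares over all genes were 49%, 8.69% and 10.3%. Under the alternatives its median lay between 0.29 and 0.87, the latter with spike-in scaling, where the median of all genes was 0.54. The list's median relative to all genes was 0.33 here, which spike-in scaling, with 1 factor per array, cannot change. Oplah, which recycles 5-oxoproline from glutathione breakdown, differed by 0.85 ± 0.20. Glul, the glutamine synthetase, which makes glutamine from glutamate, differed by 0.69 ± 0.21. The lowest were the alanine transaminases Gpt (-0.54 ± 0.20) and Gpt2 (-0.37 ± 0.22) and the glutamate dehydrogenase Glud1 (-0.29 ± 0.20). Gclc, the rate-limiting enzyme of glutathione synthesis and picked out after its value was seen, differed by 0.65 ± 0.20.

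The list of ATF4 and the integrated stress response held 30 measured genes with a median of 0.16, with 20 above 0, 3 up and 3 down by 1.5-fold or more. The shares over all genes were 49%, 8.69% and 10.3%, so the counts up and down lay near them. Pycr1, a proline synthesis enzyme, was at least 2-fold higher at 1.18 ± 0.20, and Atf5, a related transcription factor, at least 2-fold lower at -1.03 ± 0.20. Next to them lay the transcription factor Atf3 (0.78 ± 0.20) and the pseudokinase Trib3 (0.74 ± 0.20), and at the other end the seryl-tRNA synthetase Sars1 (-0.78 ± 0.20) and the mTORC1 inhibitor Ddit4 (-0.73 ± 0.20). Atf4 itself differed by 0.18 ± 0.20 and its target Asns, asparagine synthetase, by 0.22 ± 0.20, both named after their values were seen. The median of this list lay between 0.14 and 0.71 under the alternatives. Relative to all genes it was 0.17 here, which spike-in scaling cannot change.

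The remaining lists had medians below 0 here and above 0 in the deposited values and with spike-in scaling. Those 2 scalings use 1 factor per array and moved the median of all genes to 0.12 and 0.54. Relative to all genes the lists stayed at -0.06 for mTORC1 sensing, -0.09 for the other enzymes and -0.06 for the carriers outside the 7 families. Beside their counts at 1.5-fold, the shares over all genes were 8.69% up and 10.3% down. Amino acid sensing by mTORC1 had a median of -0.07 over 25 genes, with 0 up and 2 down by 1.5-fold or more, the stress-induced inhibitor Sesn3 (-0.77 ± 0.20) and Lamtor4 (-0.67 ± 0.20), a subunit of the lysosomal Ragulator scaffold. Mlst8, an mTOR subunit, followed at -0.55 ± 0.20, and the highest were the GTPase Rraga (0.51 ± 0.20), Sec13 (0.35 ± 0.20) and Mtor (0.31 ± 0.23). The other amino acid, arginine and polyamine enzymes had a median of -0.10 over 25 genes, with 1 up by 1.5-fold or more (Sat1) and 1 down (Srm). Sat1, which acetylates polyamines for breakdown and export, was highest at 0.93 ± 0.20, followed by Shmt2 (0.57 ± 0.20) and Asl (0.55 ± 0.20). The spermidine and spermine synthases Srm (-0.61 ± 0.20) and Sms (-0.52 ± 0.21) and the argininosuccinate synthase Ass1 (-0.55 ± 0.20) were lowest. The carriers outside the 7 families had a median of -0.07 over 11 genes, from Slc32a1 (-0.57 ± 0.21), Slc25a29 (-0.55 ± 0.30) and Slc25a2 (-0.35 ± 0.45) to Sfxn1 (0.18 ± 0.20), Sfxn2 (0.25 ± 0.32) and Sfxn3 (0.27 ± 0.20), and 0 of them were 1.5-fold apart.

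**Figure D3:**
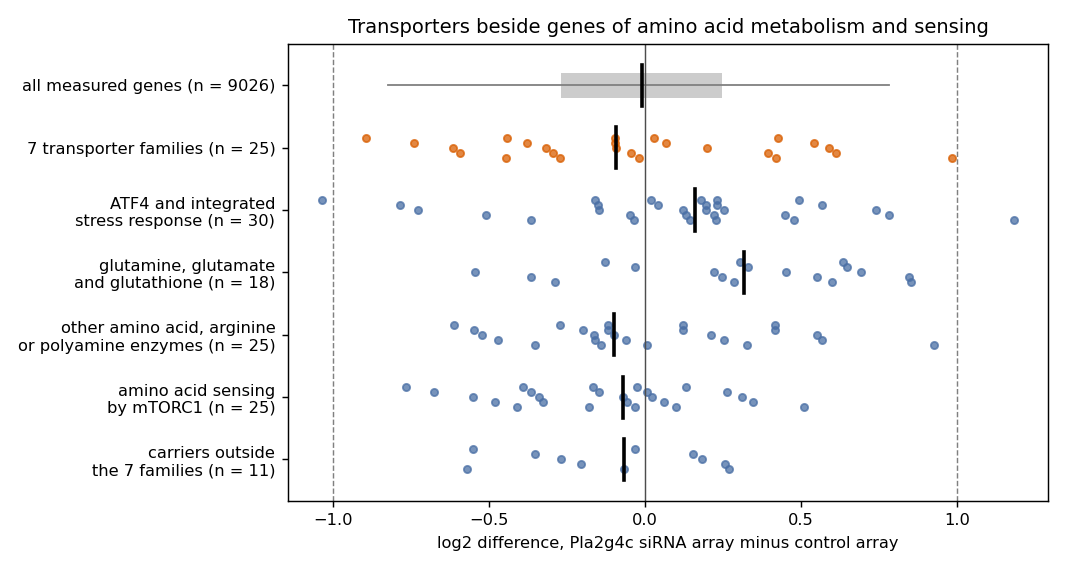
Log2 difference (treated array minus control array, x axis) of the measured genes of the 7 families and of 5 lists of amino acid metabolism and sensing, 1 point a gene, with black bars at the medians; for all 9026 genes the grey box spans the quartiles and the line the 5th to 95th percentile. The medians run from -0.10 to 0.32, and those below 0 are above 0 in the deposited values and with spike-in scaling. Both scalings move all genes alike, so the medians relative to that of all genes stay the same.

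**Figure D4:**
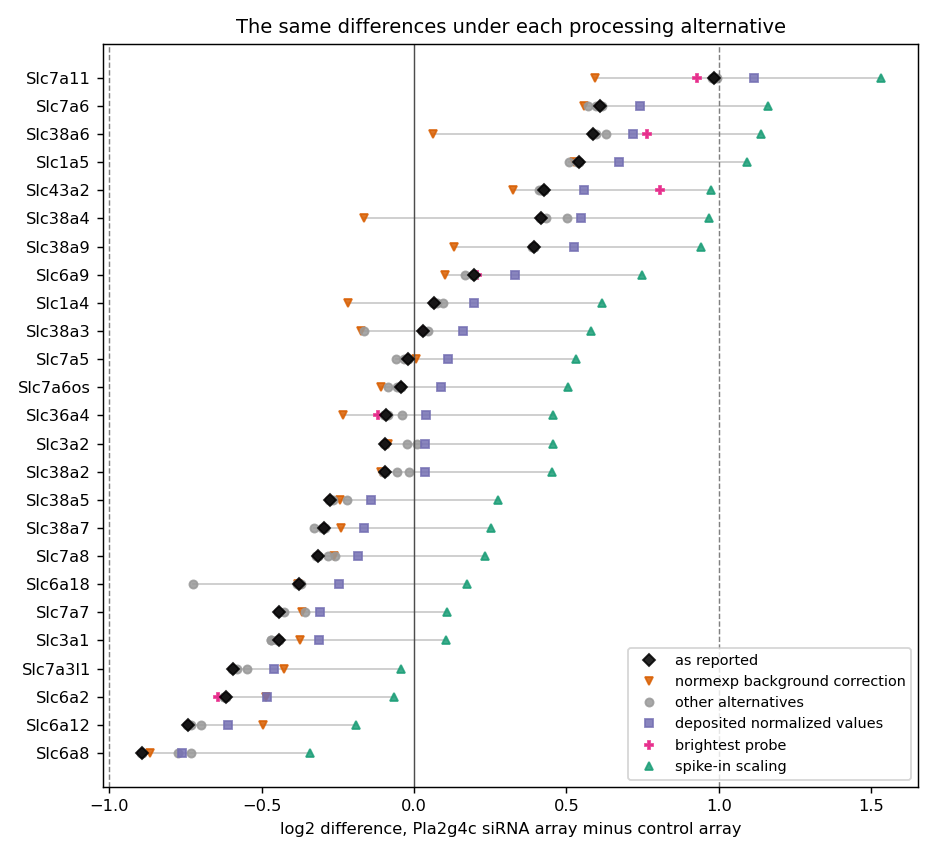
Log2 difference of the 25 measured genes (treated array minus control array, x axis) as reported (black diamonds) and under 9 alternatives in the processing, joined by a grey line per gene; dashed lines mark 2-fold. The triangles of spike-in scaling lie to the right for every gene shown, and 11 genes, Slc7a11 and Slc6a8 among them, keep their side of 0 under all 9.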

How the data were processed

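Both arrays are one-colour Agilent arrays. The deposited scanner files hold spot intensities that the authors' scanner software made (Agilent Feature Extraction; the submitters' processing notes give 10.10, the headers 10.10.1.1). By those file headers the deposited signal is background-subtracted and detrended, with no normalization between arrays, and the background and outlier flags (values of 0 or 1, another unit) were used as deposited. The deposited normalized intensities equal the processed signal times 1.77 (control) and 1.50 (Pla2g4c siRNA), and no source used here says how these were chosen.

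From these, log2 signal was centred per array on the 75th percentile of gene spots. Outlier flags (466 control and 381 treated gene spots) removed a spot from both arrays, and the rest were averaged per probe and measured probes per gene. Signal over background sets the precision: 61.9% (control) and 63.1% (treated) of gene spots passed the background flag, 0 were saturated, and 1 array a group allows no test. A symbol was found for 18006 of 30367 probes (59.3%) through RefSeq accessions of GRCr8, while the array design uses rn4, so no probe coordinates are given and the promoter windows are those of GRCr8. A bound sets the bright array's value against the dim array's own value or, if higher, the lowest value there that passed the background flag. For all 3 members with a bound the dim array's own value was the higher, so each bound equals the plain difference.

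The members, the gene lists and the rule for naming were chosen with earlier results of these data known. Every measured member is named, bounds where they reach 1.5-fold (and 1 that did not), and up to 3 genes at each end of a list, 2-fold ones first. Of 147 list entries, 2 matched no symbol. A list gene that this rule would name is not reported here. The 9 alternatives and the thresholds of 1.5-fold and 3-fold are in the closing section; normexp (offset 50) used the median spot signal. R 4.3.3, limma 3.58.1, Python 3.11.15, numpy 2.4.6, pandas 2.3.3 and matplotlib 3.10.9 were used, and the steps were tested on simulated data.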

Additional observations from a re-analysis of the deposited data

How the results depend on the processing

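The count of members at least 2-fold higher was 0 and of those at least 2-fold lower 0 as reported. It was also 0 and 0 with normexp background correction, median scaling, quantile normalization, cyclic loess, the brightest probe, outlier spots kept and a threshold of 3-fold. The count higher was 1 in the deposited normalized values (4.09% of all genes passed), 4 with spike-in scaling to 8 RNAs (13.2% of all genes) and 2 of 60 without the filter on dim probes (3.56%), which also gave 6 lower (5.05%). A threshold of 1.5-fold gave 3 higher and 4 lower, with normexp 1 and 1 (4.22% and 7.36% of all genes), and with spike-in scaling 9 and 0. The count above 0 was 22 of 60 without the filter and 21 of 25 with spike-in scaling, where the median was 0.46. In the deposited values 15 of 25 (60.0%) were above 0, against 10 (40.0%) as reported, and with normexp 8. Of the 25 members 11 kept their sign under all 9 alternatives, 6 more under all but spike-in scaling, and 8 changed it under another. Relative to the median of all genes 17 kept their side throughout. Median scaling, the deposited values and spike-in scaling use 1 factor per array and could not change that side. Of 225 member values under the alternatives 193 lay within the software error of the reported value. Much of this was fixed in advance. Median scaling and the deposited values shift all genes alike, by less than these errors. The choice of the brightest probe cannot change the 19 members measured by 1 probe. Leaving out the filter can change only members with a further, dim probe, and keeping outlier spots only those with a flagged spot. The other 32 values were the 25 with spike-in scaling, 5 with normexp, 1 with the brightest probe (Slc43a2, 0.81) and 1 without the filter (Slc6a18, -0.72). Those 25 were fixed in advance as well, as spike-in scaling shifts all genes alike by more than these errors. Members near background have the least precision, and 1 array a group leaves the variation between cultures unmeasured.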

Other observations

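For 3 of the 32 genes counted as above background on neither array, 1 of 2 spots of a probe was well above background, each time on the control array, and no spot of these probes carried an outlier flag. For Slc6a14, the carrier of neutral and cationic amino acids, the control spots read 191 and 2.54 and the treated spots 3.33 and 2.64. For Slc6a5, the glycine transporter GlyT2, they read 27.5 and 3.21 on 1 of its 2 probes, against 3.31 and 3.28. For Slc6a11, a GABA transporter, they read 17.0 and 3.72, against 8.42 and 9.33. On each probe the brighter control spot passed the background flag and the other did not, so none counted as a measured level. Without the filter on dim probes, Slc6a14 and Slc6a5 are 2 of the 6 genes at least 2-fold lower, and the mean of both Slc6a14 control spots, 22.0, is the top of the signal range given for genes on neither array.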
